A study of Homo sapiens with 6 samples.

Results

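The pro-survival BCL2 family comprises 6 listed genes, BCL2, BCL2L1, BCL2L2, MCL1, BCL2A1 and BCL2L10, which were looked up by symbol among 18417 genes measured on the arrays. Of these, 5 had a probe set assigned to that gene alone, 1 each. The only probe set of BCL2L2, which encodes BCL-W, is assigned to it and to the read-through gene BCL2L2-PABPN1, so BCL2L2 has no value here. RNA came from A549, a human lung adenocarcinoma cell line, kept as stable cells that were starved of serum overnight and then given VP-16 for 48 h. VP-16 is etoposide, which traps topoisomerase II on broken DNA. Control stable cells (labelled C, 3 arrays) were set against stable cells whose label is H2AX knockdown (P1, 3 arrays), H2AX being the histone variant phosphorylated around double-strand breaks. Every sample had received the drug, so what VP-16 itself changes is not addressed. The labels give neither the knockdown vector nor what the control cells carry. The samples of a group are described as independent experiments, and nothing says that more than 1 line stands behind a group, so p-values measure the spread between experiments.

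Proteins of this family hold the effectors BAX and BAK in check at the mitochondrial outer membrane. BH3-only proteins such as NOXA and BIM are induced or activated by stress, fill the groove of the pro-survival proteins and so free the effectors, which open the membrane and release cytochrome c to start the caspases. MCL1 is short-lived and answers quickly to changes in its transcription and breakdown, BCL2L1 encodes the long-lived BCL-XL, a main guardian in epithelial cancers, and BCL2A1 encodes BFL-1, known as an NF-kB target. MCL1 and BCL2L1 both give long, protective and short, death-promoting splice forms, and 1 probe set per gene cannot tell these apart. Protein levels and cell death were not measured.

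Windows were held for 3 of the 6 members (RefSeq, GRCh38.p14), and those of BCL2A1, the member with the largest difference below, and of BCL2L1, an abundant member, are shown for contrast. Each covers the 250 bases before the outermost RefSeq start and runs 5′ to 3′ on the minus strand, chr15:79971197-79971446 for BCL2A1 and chr20:31723964-31724213 for BCL2L1. Capitals mark matches on either strand to the motifs searched.
BCL2A1: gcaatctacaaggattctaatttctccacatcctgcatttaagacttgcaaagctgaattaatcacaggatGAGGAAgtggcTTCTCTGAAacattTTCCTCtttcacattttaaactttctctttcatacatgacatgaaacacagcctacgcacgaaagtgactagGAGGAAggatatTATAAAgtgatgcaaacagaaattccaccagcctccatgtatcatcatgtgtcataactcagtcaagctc
BCL2L1: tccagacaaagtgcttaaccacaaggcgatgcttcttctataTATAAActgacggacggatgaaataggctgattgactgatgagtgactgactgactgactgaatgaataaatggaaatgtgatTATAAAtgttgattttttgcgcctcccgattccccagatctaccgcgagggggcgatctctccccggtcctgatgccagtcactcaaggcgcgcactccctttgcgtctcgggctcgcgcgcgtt
The BCL2A1 window is 38.8% G and C, at the 11.4th percentile of 35116 such windows of all genes, and the BCL2L1 window is 50%, at the 32.8th percentile. The window at another RefSeq start of BCL2L1 is 60.4% and that of BCL2 is 70% G and C (56th and 80.1st percentile), and neither, not printed here, held any of the motifs. The BCL2A1 window held TTCNNNGAA, the site of STAT factors, from −168 to −160, and 6.57% of all windows hold it. It held TATAAA, the box bound by the general transcription machinery, from −70 to −65 (10.7% of all windows). It also held GAGGAA, the core bound by ETS factors together with flanking letters, at 3 places (23.6% of all windows), and none of these matches overlapped another. The BCL2L1 window held TATAAA at −208 to −203 and at −125 to −120. No match was found in either window for the NF-kB consensus, present in 9.96% of all windows, for TGANTCA of AP-1 (6.57%), for TGACGT of CREB (7.1%) or for GGGCGG, the GC box (42.6%). A match is a string of letters and was not tested as a binding site, and a missing match says only that these letters are not in this window.

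The arrays do not show the labelled knockdown at the level of H2AX RNA. Its log2 signal was 5.11, 5.27 and 5.26 in control replicates 1, 2 and 3 and 5.28, 5.17 and 5.49 in knockdown-labelled replicates 1, 2 and 3, a difference of 0.10 (95% interval from −0.25 to 0.45). The adjusted p of limma was 0.823, and a 2-sided exact permutation test gave p = 0.4. Directions below are therefore those of the arrays labelled H2AX knockdown. Brighter genes read lower in these arrays: with genes sorted by mean signal into 5 bins, the median difference went from 0.15 in the dimmest bin to −0.25 in the brightest, and in knockdown-labelled replicate 1 alone the brightest bin lay at −0.45 against the control mean. The keratin genes KRT8, KRT18 and KRT7 were bright (9.69, 8.67 and 8.52 in controls). KRT19 was lower at 4.46 and CDH1 stood at 5.59, while EPCAM was dim at 2.42. Of 9 A549 and epithelial markers 7 were below 0 (median −0.13), their summed linear signal ran from 2399.9 to 3106 in control and from 2197 to 2924 in knockdown-labelled arrays, and 1 was lower before adjustment. This was ALDH1A1, an aldehyde dehydrogenase abundant in A549, at −0.61 (unadjusted p = 0.00292 and adjusted p = 0.273 in limma), with groups that did not overlap. Of 10 blood and immune cell markers 1, CD68, was lower and none was higher (limma, unadjusted p under 0.05), and 3 of the 10 were below 0 (median 0.10). Their summed linear signal ran from 505 to 663 in control and from 401 to 479 in knockdown-labelled arrays, most of it from CD68 (8.93 in controls). Without CD68 the sums were 77.8 to 90.6 and 79.1 to 100.5. The other 9 stood between the 7.97th percentile of genes (PTPRC) and the 60.5th (CD14). Fibroblast markers (9 measured, 0 below 0, median 0.23) had a summed signal of 89.5 to 112 in control and 106 to 126 in knockdown-labelled arrays, with 1 higher, LUM, at an unadjusted p under 0.05. Endothelial markers (4 measured) summed to 30.8 to 35.7 and 31.7 to 36.3, with none called at an unadjusted p in limma. Before adjustment limma called 8.38% of all genes lower and 3.78% higher, and 9.82% had groups that separated downwards. Below 0 were 18.3%, 36.1% and 51.3% of genes in the 3 dimmest bins, and 85.3% in the brightest. All fibroblast markers except COL1A1 fell in the 3 dimmest bins, and ALDH1A1 and CD68 in the brightest. Whether any marker list moved beyond the shift with brightness was not tested. The part of these markers in the results below was not tested either.

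BCL2A1 read lower in every knockdown-labelled array, and no member passed the threshold. Signals are log2 units, in which a difference of 1 is a doubling or halving, and the threshold is an adjusted p under 0.05 over all 18417 genes, which 0.0326% of genes passed (limma). At an unadjusted p under 0.05, 1 of the 5 measured members, BCL2A1, was lower and 0 were higher, where 8.38% of all genes were lower and 3.78% higher. The difference was below 0 for 4 of the 5, against 51.5% of all genes, and the median of the 5 was −0.12, against −0.01 over all genes. That median was 0.011 after quantile normalization and 0.042 under cyclic loess, which adjusts arrays by brightness.

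BCL2A1 encodes BFL-1, which binds BIM, BID and NOXA and is best known from blood cells. Its log2 signal (probe set 7990818, Entrez gene 597) was 5.41, 4.997 and 5.007 in control replicates 1, 2 and 3, and 4.50, 4.10 and 4.74 in knockdown-labelled replicates 1, 2 and 3. All knockdown-labelled arrays lay below all controls, a separation that 9.82% of genes showed in this direction, and control replicate 1 was the highest and knockdown-labelled replicate 2 the lowest array. The mean went from 5.14 ± 0.24 to 4.45 ± 0.33 (SD, n = 3 each). This is a difference of −0.69 ± 0.20 (SE), or −38.0% of the signal with a 95% interval of −53.9% to −16.8% (unadjusted p = 0.00381 and adjusted p = 0.279 in limma). A 2-sided exact permutation test gave p = 0.1, which is as low as groups of 3 can reach. Genes in the same bin of brightness had a median of −0.10, and 0.972% of all genes had a difference as low. In bulk RNA, fewer cells that express a gene and less of its RNA per cell cannot be told apart. With knockdown-labelled replicate 1 left out, the array in which bright genes read lowest, the difference was −0.72. It was −0.52 with knockdown-labelled replicate 2 left out, and −0.58 both after quantile normalization and under cyclic loess. The part of the shift with brightness in this difference was not tested.

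**Figure D1:**
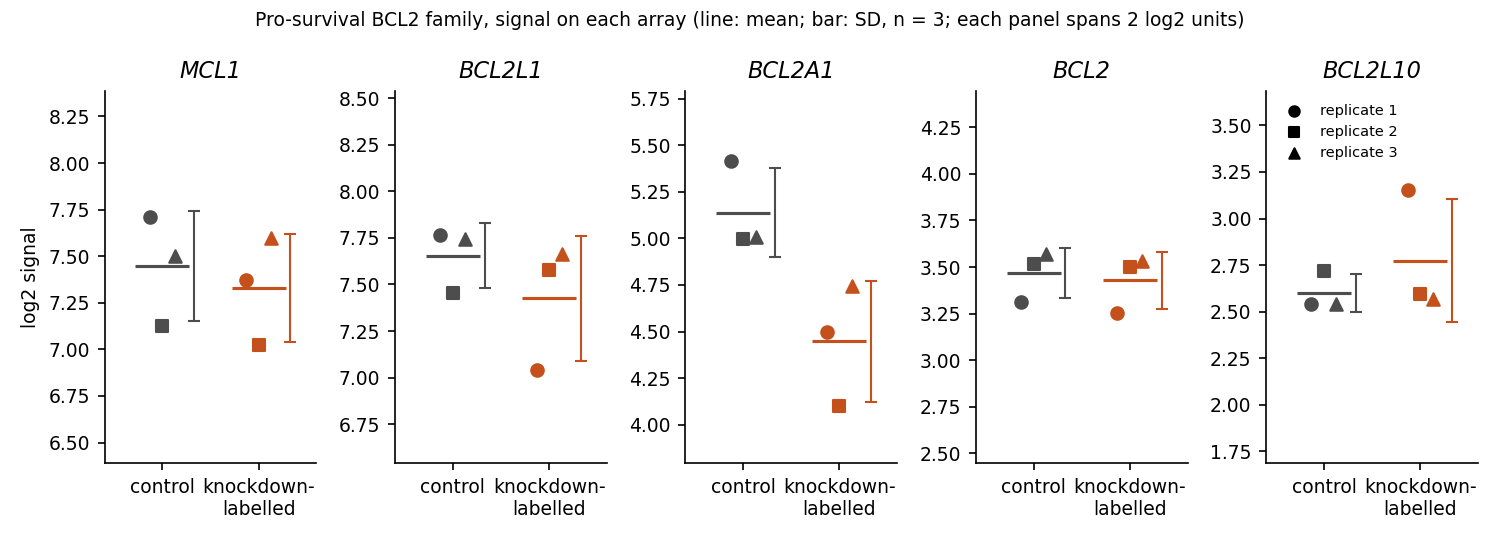
Log2 signal of the 5 measured members on each array, controls in grey and knockdown-labelled arrays in orange, with marker shapes for the replicate number, a line for the mean and a bar for the SD (n = 3). The groups separate for BCL2A1, at 4.997 to 5.41 against 4.10 to 4.74, and overlap for MCL1, BCL2L1, BCL2 and BCL2L10; every panel spans the same distance on its log2 axis.

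MCL1, whose protein binds BAK, BIM and NOXA, had overlapping groups. Its log2 signal (probe set 7919751, Entrez gene 4170) was 7.71, 7.13 and 7.50 in control replicates 1, 2 and 3 and 7.37, 7.02 and 7.60 in the knockdown-labelled replicates. Replicate 2 was the lowest array of both groups. The difference was −0.12 ± 0.20 (SE), with a 95% interval of −0.55 to 0.31, which covers −31.5% to 24.3% of change (p = 0.834 in limma after adjustment, p = 0.6 in the 2-sided exact test). It turned above 0 after quantile normalization (0.10) and cyclic loess (0.16), and when control replicate 1 (0.015) or knockdown-labelled replicate 2 (0.037) was left out.

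BCL2L1, which encodes BCL-XL, was decided by 1 array. Its signal (probe set 8065569, Entrez gene 598) was 7.77, 7.45 and 7.75 in the controls and 7.04, 7.58 and 7.66 in knockdown-labelled replicates 1, 2 and 3. Only replicate 1 of the knockdown-labelled arrays lay below all controls, and the other two lay within their range. The difference was −0.23 ± 0.19 (SE), with a 95% interval of −0.64 to 0.19 (p = 0.643 in limma after adjustment, p = 0.5 in the 2-sided exact test), beside a median of −0.25 for the brightest bin of genes, to which BCL2L1 and MCL1 belong. It was −0.036 with that array left out, 0.011 after quantile normalization and 0.042 after cyclic loess.

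BCL2, the founding member, read 3.31, 3.52 and 3.57 in control replicates 1, 2 and 3 and 3.25, 3.50 and 3.53 in the knockdown-labelled replicates (probe set 8023646, Entrez gene 596). The replicates of both groups spanned nearly the same range. The difference was −0.04 ± 0.16 (SE), with a 95% interval of −0.39 to 0.32, or from −23.7% to 24.4% (p = 0.940 in limma after adjustment, p = 0.6 in the 2-sided exact test). Leaving out control replicate 3 gave 0.014, and leaving out knockdown-labelled replicate 1 gave 0.051. Its mean signal stood at the 40.7th percentile.

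BCL2L10, which encodes BCL-B, had a mean signal that stood at the 21.9th percentile, where a fall is hard to read. It read 2.54, 2.72 and 2.54 in the controls and 3.15, 2.60 and 2.57 in knockdown-labelled replicates 1, 2 and 3 (probe set 7988852, Entrez gene 10017). Knockdown-labelled replicate 1 alone stood above the other arrays. The difference of 0.17 ± 0.19 (SE), with a 95% interval of −0.23 to 0.57 (p = 0.723 in limma after adjustment, p = 0.5 in the 2-sided exact test), became −0.018 without that array. In that array BCL2L1 was low and BCL2L10 high, as bright genes there were low in general, and the part of this shift in the 2 values was not tested.

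**Figure D2:**
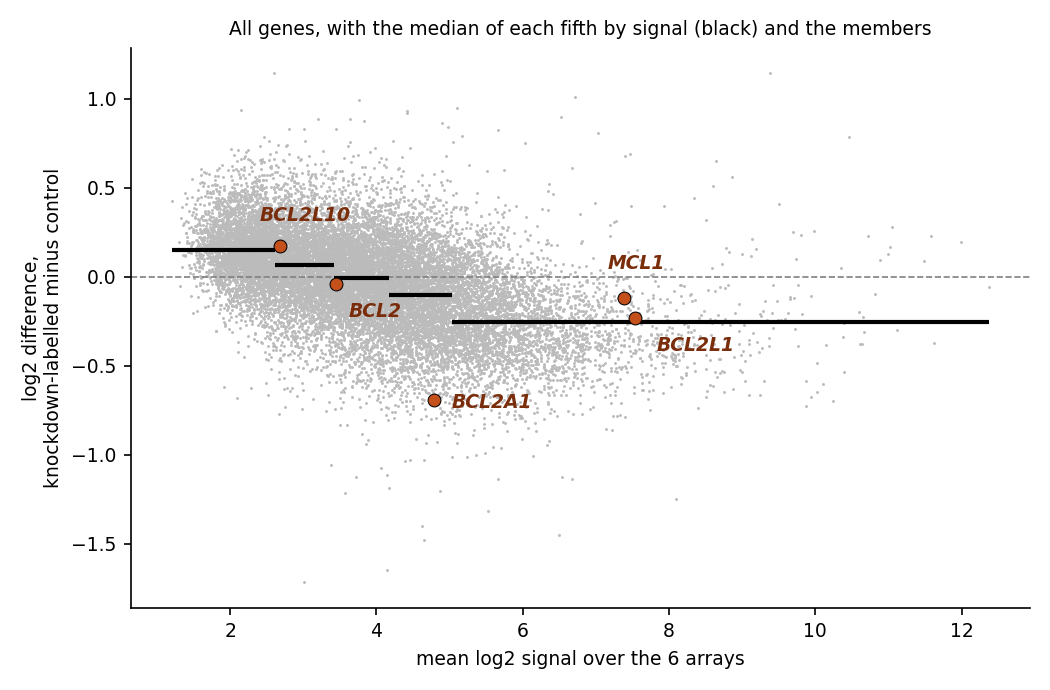
Log2 difference (knockdown-labelled minus control) against mean log2 signal for all 18417 genes in grey, with the median of each of 5 bins by signal as a black bar and the 5 measured members in orange. BCL2A1 lies 0.59 below the median of its bin, while BCL2L1 lies 0.02 and MCL1 0.14 above theirs.

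Members were also set against each other within each array, which asks whether they changed unequally whatever the array's overall level. Such a difference does not remove the shift with brightness, and the members lay in bins with medians from 0.07 to −0.25. The part of that shift in the changes below was not tested. Of 10 pairs, 3 had groups that did not overlap, and all 3 held BCL2A1. MCL1 minus BCL2A1 was 2.30, 2.13 and 2.50 in control replicates 1, 2 and 3 and 2.87, 2.92 and 2.85 in the knockdown-labelled replicates. The knockdown-labelled arrays thus lay close together and above every control, with a change of 0.57 (exact permutation test, 2-sided, p = 0.1, adjusted over the 10 pairs p = 0.333). The changes were 0.65 for BCL2 minus BCL2A1 and −0.86 for BCL2A1 minus BCL2L10, with the same p-values. BCL2L1 minus BCL2A1 changed by 0.46, with overlapping groups (exact permutation test, p = 0.2, adjusted p = 0.5). Against all other genes taken 1 by 1, BCL2A1 separated downwards from 56.9% of 18416, so the separation from these members is not particular to them. The count of 3 pairs was 2 after quantile normalization and 5 without control replicate 2, where fewer arrays make a separation easier.

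The genes whose signals followed BCL2A1 most closely over the 6 arrays, among 9207 brighter than the median, were PRDX3, a mitochondrial peroxiredoxin (Pearson r = 0.996), HERC4, a ubiquitin ligase (0.996), SAT1, a polyamine acetyltransferase (0.995), TANK, an adaptor that binds TRAF proteins (0.995), and DYNC1I2, a dynein chain (0.994). Their differences were −0.71, −0.39, −0.62, −0.40 and −0.67, none past the threshold. These correlations describe 6 arrays that share the group difference and the shift with brightness, and 481 of the 9207 genes had an r over 0.9.

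None of the 57 measured genes of 8 other lists of the pathway passed the threshold, while 12 read lower and 2 read higher when p (limma, under 0.05) was left unadjusted, against 8.38% and 3.78% of all genes. The share of genes below 0 was 51.5% over all genes. It rose with brightness, at 18.3%, 36.1%, 51.3%, 66.1% and 85.3% from the dimmest bin to the brightest. The counts below 0 that follow are to be read beside these shares. Among BAX-type effectors (3 measured, all below 0, median −0.15), BAX was at −0.15 (limma adjusted p = 0.745) and BAK1 at −0.72 (adjusted p = 0.409), with 1 of 3 lower at an unadjusted p. BAK1 read 4.93, 4.36 and 4.55 in the controls and 3.20, 4.88 and 3.59 in knockdown-labelled replicates 1, 2 and 3, so replicate 2 was above some controls. The median of these 3 genes was 0.075 after quantile normalization and 0.12 under cyclic loess, and it ran from −0.28 to −0.025 with 1 array left out.

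BH3-only genes, the antagonists of the pro-survival proteins, had 4 of 8 below 0 and a median of −0.047, with 2 lower and 1 higher before adjustment. That median has no stable sign: it was −0.25 with the low-signal filter and 0.0030 after quantile normalization, and it ran from −0.14 without control replicate 1 to 0.033 without control replicate 2. PMAIP1, which encodes NOXA, the partner of MCL1 and BFL-1, read 5.48, 5.17 and 5.28 in the controls and 4.45, 4.59 and 5.01 in the knockdown-labelled replicates. All of the latter were lower, with a difference of −0.62 (limma unadjusted p = 0.00448, adjusted p = 0.279). BIK, a BH3-only protein of the endoplasmic reticulum, was at 0.44 (limma unadjusted p = 0.0131, adjusted p = 0.322), with 3.20, 3.33 and 3.31 in the controls and 3.63, 3.71 and 3.84 in the knockdown-labelled arrays. Its groups did not overlap either, which 7.17% of genes showed in that direction. Of 4 other BCL2 homologues 1 was below 0, with a median of 0.12 (−0.035 with the low-signal filter, and from −0.068 without knockdown-labelled replicate 3 to 0.24 without knockdown-labelled replicate 1). BCL2L14 was at 0.50 with a control signal of 2.16, and BCL2L13 at −0.30 (limma adjusted p = 0.360 and 0.582).

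NF-kB-induced survival genes outside the family had the lowest median of these lists, −0.48, with 6 of 8 measured genes below 0 and 5 lower at an unadjusted p under 0.05, where 8.38% of all genes were. BCL2A1 is known as a target of the same factor, and its difference was already known when the list was drawn up. The 5 genes called lower lay in the brightest bin or the next, where the medians over all genes were −0.25 and −0.10. The share of genes called lower within a bin was not computed. SOD2, the mitochondrial superoxide dismutase, was at −0.81 (limma unadjusted p = 0.000571, adjusted p = 0.192). It read 6.67, 6.08 and 6.53 in the controls and 5.56, 5.67 and 5.63 in knockdown-labelled replicates 1, 2 and 3, with no overlap. CFLAR, which encodes the caspase-8 inhibitor c-FLIP, was at −0.71 (adjusted p = 0.273), with 5.67, 5.12 and 5.43 in the controls and 4.47, 4.67 and 4.95 in the knockdown-labelled arrays. Above 0 were TRAF1 at 0.22 and GADD45B at 0.19 (limma adjusted p = 0.605 and 0.658). The groups of TRAF1 did not overlap, which 7.17% of genes showed in that direction. TRAF1 lay in the bin next to the dimmest, where the median was 0.07 and 36.1% of genes were below 0. GADD45B lay in the bin next to the brightest (median −0.10). Whether these genes moved unlike the rest of the list was not tested. The median of the list was −0.34 after quantile normalization, and −0.26 without knockdown-labelled replicate 1. BIRC3 and TRAF2 were not analysed here.

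Of 12 transcription factors known to act on the members 11 were below 0, with a median of −0.33, and 1 was lower at an unadjusted p under 0.05, a share near that of all genes (8.38%). This was NFKB1, the p105 and p50 subunit of NF-kB, at −0.70 (limma unadjusted p = 0.00583, adjusted p = 0.289). It read 4.67, 4.15 and 4.37 in the controls and 3.86, 3.23 and 3.99 in the knockdown-labelled replicates, and replicate 2 was the lowest array of both groups, as it was for MCL1. REL, the c-Rel subunit, was at −0.39 (adjusted p = 0.414). RELB, at 0.18 (limma adjusted p = 0.667), was the factor above 0. After quantile normalization the median was −0.14, and without control replicate 1 it was −0.20.

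Genes of MCL1 turnover, which add or remove ubiquitin or phosphorylate the protein for breakdown, had 8 of 10 below 0, a median of −0.21 and 0 called at an unadjusted p under 0.05 (limma). That median was −0.087 after quantile normalization and −0.062 under cyclic loess, and ran from −0.079 without control replicate 1 to −0.33 without control replicate 2. USP9X, a deubiquitinase that stabilises MCL1, was at −0.36, and the kinase GSK3B at −0.33 (limma adjusted p = 0.439 and 0.508). Of 7 partners bound by BCL2 proteins outside the family 6 were below 0, with a median of −0.19 (−0.31 without control replicate 2, −0.33 with the low-signal filter and −0.11 under cyclic loess), and 2 were lower at an unadjusted p under 0.05. These were the mitochondrial porins VDAC2, which holds BAK at the membrane, at −0.60 and VDAC3 at −0.47 (limma adjusted p = 0.279 and 0.315). Of the apoptosome and caspases 5 genes were measured and all 5 were below 0 (median −0.25, and −0.10 after quantile normalization), with 1 lower at an unadjusted p. DIABLO, which encodes the IAP antagonist SMAC, was at −0.61 and APAF1 at −0.35 (limma adjusted p = 0.279 and 0.426).

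**Figure D3:**
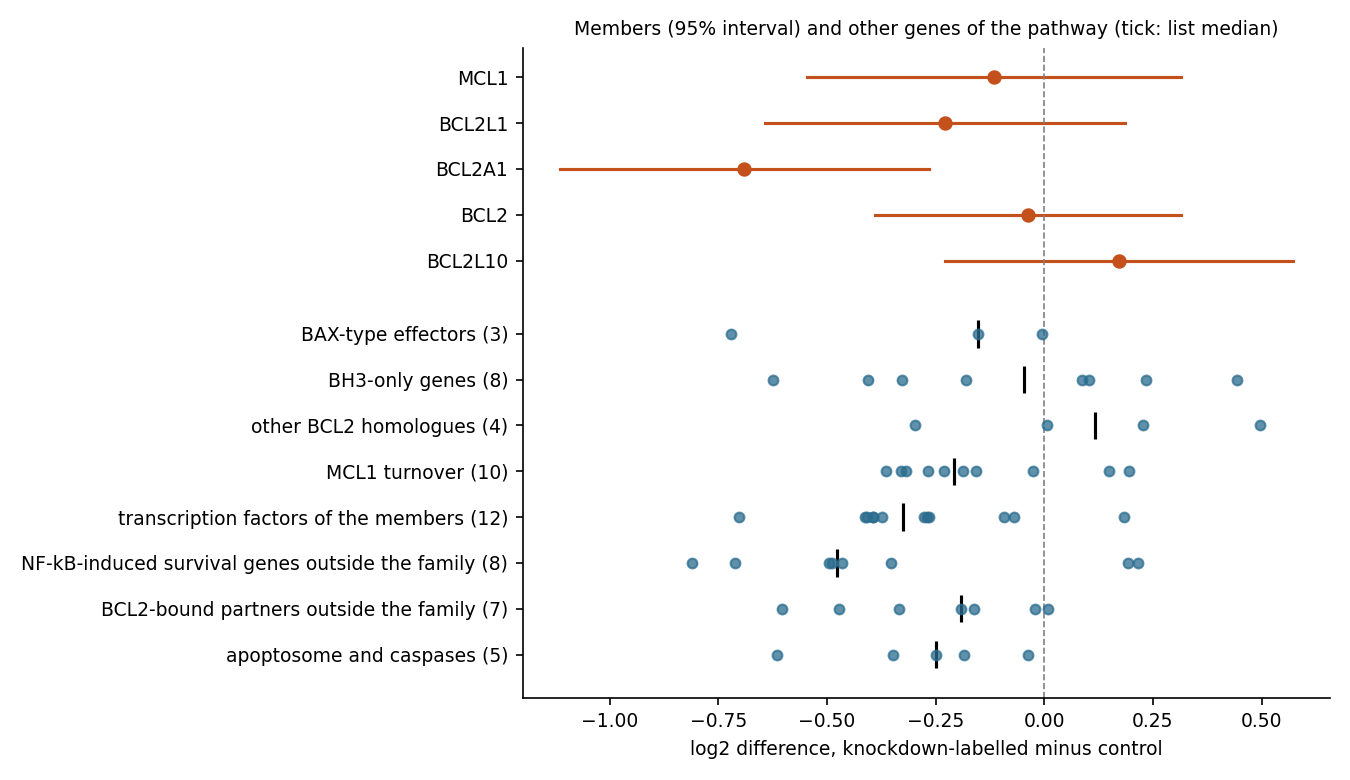
Log2 differences (knockdown-labelled minus control) of the 5 measured members with 95% intervals in orange, and of the genes of 8 other lists as blue points with the list's median as a black tick and the number measured in brackets. The interval of BCL2A1 lies below 0 and those of the 4 other members include it, and the list medians run from −0.48 to 0.12.

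Across the 15 other settings and left-out arrays BCL2A1 was the member that kept its direction and its unadjusted call in each. Its difference ran from −0.84 to −0.52 over the left-out arrays and from −0.74 to −0.58 over the other settings, with an adjusted p (limma) between 0.0643 and 0.928. No member passed the threshold in any of them. MCL1, BCL2L1, BCL2 and BCL2L10 each changed sign in at least 1.

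**Figure D4:**
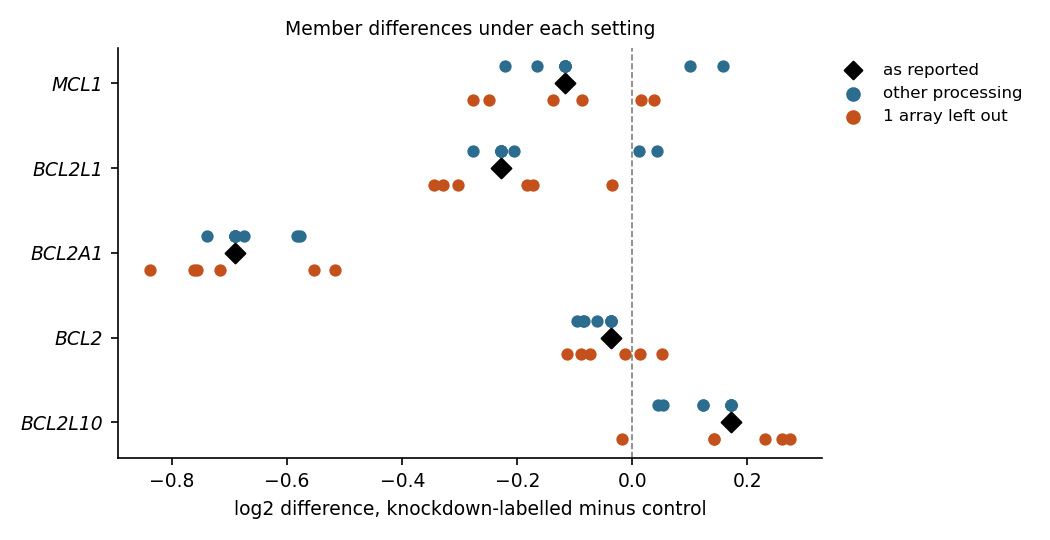
Log2 difference of each measured member as reported (black diamond), under other processing (blue) and with 1 array left out (orange). All values of BCL2A1 lie between −0.84 and −0.52, and those of MCL1, BCL2L1, BCL2 and BCL2L10 fall on both sides of 0.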

How the data were processed

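RNA of 6 samples was measured on Affymetrix arrays. The deposited values are log2 signals of 33297 probe sets, made by the authors with RMA per the submitters' processing notes, without a version there. The log2 scale was read from the values (0.611 to 13.2). Signal over background cannot be read from them, so no gene was called absent. Probe sets were named through the platform's annotation, and only those with 1 gene were named (19460; 1754 had several and 12083 none). Per gene the probe set with the highest mean was kept, giving 18417 genes.

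Groups came from the sample titles. Genes were tested with limma 3.58.1 (lmFit, eBayes, R 4.3.3), 2-sided, without covariates or a filter, with p-values adjusted over all genes by Benjamini and Hochberg's method (threshold 0.05), and single values also with an exact permutation test. Percent changes are back-transformed from log2. The members and lists were chosen with earlier results of these data known. Named by rule were all members, H2AX, the 2 genes of smallest p per list and the 5 genes most correlated with the member of smallest p. Markers, motifs, TRAF1, GADD45B and RELB were named apart from this rule. On simulated arrays (3 against 3, 18417 genes) the test recovered 65% of 100 genes changed by 1 and 97% of 100 changed by 2 on the log2 scale, with 4 false among 166 calls. The simulated noise was independent for each value and held no shift with brightness, so these rates need not hold for the real arrays. Alternatives were a replicate block, a low-signal filter, quantile normalization, array medians subtracted, cyclic loess (5 iterations), the mean of all probe sets, array weights, robust variance with an intensity trend, every probe set tested on its own, and each array left out. Figures were drawn with matplotlib 3.10.9. The number of arrays limits the precision.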

Additional observations from a re-analysis of the deposited data

How the results depend on the processing

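No result on a member or on H2AX crossed the threshold in any setting, and 1 member, BCL2A1, was lower at an unadjusted p under 0.05 in each. The sign turned for BCL2L1 (0.011 and 0.042) and MCL1 (0.10 and 0.16) after quantile normalization and cyclic loess, and the median of the members went to 0.011 and 0.042. With 1 array left out, differences ran from −0.28 to 0.037 for MCL1, −0.35 to −0.036 for BCL2L1, −0.11 to 0.051 for BCL2, −0.018 to 0.27 for BCL2L10 and 0.010 to 0.17 for H2AX, the members' median from −0.28 to −0.036, and pairs that separated from 3 to 5. The count of genes past the threshold, 6 as reported, was 16 with the low-signal filter (which drops BCL2 and BCL2L10), 3 with the mean of all probe sets, 191 with array weights and 0 to 9 with 1 array left out. It was 0 in limma after quantile normalization, cyclic loess or with every probe set tested. At an unadjusted p under 0.05 in limma these settings called 1495 and 1511 of 18417 genes and 3611 of 33297 probe sets. With array weights 4 of the other pathway genes passed, SOD2, CFLAR, NFKB1 and DIABLO (limma adjusted p 0.0197 to 0.0488), and control replicate 3 carried a weight of 5.03 against 0.41 to 1.22 for the others; the cause of these changes was not tested. The arrays did not show that replicate numbers pair the samples. After each gene's group mean was subtracted, same-numbered arrays correlated at −0.31, −0.02 and 0.07 over genes. With 3 arrays per group this cannot exclude a pairing. The replicate block gave 3 genes and a limma adjusted p of 0.401 for BCL2A1.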
